A study of Homo sapiens with 60 samples.

Results

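The genes described here are 33 genes of the amino acid response that ATF4 controls, measured as messenger RNA in HT29 cells, a line long kept in culture from a human colorectal adenocarcinoma. They were chosen by symbol from a list of ATF4 and its partners, known ATF4 targets in amino acid synthesis and uptake, and stress genes of the same pathway, and the rule uses no measured value. Earlier results of these data were known when these genes and the related lists below were chosen. All 33 were found among the 60675 genes of the count table. Of these, 31 passed the filter on low counts and were tested with the other genes, 16767 in all. CBS, which joins serine and homocysteine, averaged 0.572 counts per library and was at 0 in 28 of 60 libraries, and STC2, a secreted stress glycoprotein, was at 0 in 59 of 60 libraries.

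When amino acids run short or the endoplasmic reticulum is stressed, kinases phosphorylate the initiation factor eIF2, most translation slows, and the ATF4 messenger RNA is translated more. ATF4, a basic leucine zipper (bZIP) factor, pairs with C/EBP proteins at C/EBP-ATF response elements and raises genes that make, import and charge amino acids. The kinase complex mTORC1, which acts downstream of phosphoinositide 3-kinase (PI3K), is also known to raise ATF4 in growing cells without such stress. Tumour cells of the colon use the same genes to supply serine, asparagine and glutamine.

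Cells were treated for 24 h. The groups were wortmannin at 10 µM, LY294002 at 10 µM, water extracts of Poria Cocos, Atractylodis Rhizoma, Glycyrrhizae Radix (licorice root), Panax Ginseng, Angelicae Gigantis Radix and Paeoniae Radix at 20, 100 and 500 µg/mL each, and vehicle. Wortmannin and LY294002 are PI3K inhibitors that also act on mTOR, and the extracts are named by their first word below, except Ginseng. The labels give 0.1% DMSO as vehicle, whereas the series text gives 2%. Only vehicle has a DMSO content recorded here, so a match in solvent between vehicle and the treated groups was not checked. All groups are the same unmodified line, n = 3 libraries each apart from 2 in each Paeoniae group, and the labels do not say whether libraries came from separate cultures, so p-values measure the spread between these libraries.

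The 60 libraries held 20431980 to 35477712 expected counts each, and mitochondrially encoded genes took between 7.56% and 9.96% of them in the group means, the highest in vehicle. The intestinal epithelial markers EPCAM at 558 CPM and KRT20 at 310.3 CPM, averaged over the group means, were present. The intestinal factor CDX2 was low, at 5.05 CPM. Fibroblast, leukocyte and endothelial markers were at or under 1.70 CPM. CPM are counts scaled to a common library total after TMM normalisation. The first digit of the sample codes divides the groups into 4 sets, which are the inhibitors with vehicle, Poria with Atractylodis, Glycyrrhizae with Ginseng, and Angelicae with Paeoniae. The vehicle codes alone carry a letter A before this digit, so every treatment compared with vehicle, inhibitors included, also differs in that letter. The labels explain neither the digit nor this letter, and all titles carry the same batch letter. An extract compared with vehicle also compares code sets, and treatment and code set cannot be told apart there. Comparisons of doses of 1 extract, or of extracts that share a code set, stay within a set. One library, replicate 1 of Ginseng at 500 µg/mL, stood apart from its group in many of these genes, and results that rest on it are given with and without it.

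In vehicle, levels per kilobase of exon ranged widely. SLC1A5, the glutamine and neutral amino acid exchanger, had 209 ± 13.1 CPM per kilobase (SD, n = 3), ATF4 itself 102 ± 1.13, the cationic amino acid carrier SLC7A1 86.9 ± 2.12 and the large neutral amino acid carrier SLC7A5 61.5 ± 2.79 CPM per kilobase. ASNS, which makes asparagine from aspartate and glutamine, lay in the middle at 12.0 ± 0.284 CPM per kilobase. The lowest of the tested genes were the glycine transporter SLC6A9 at 0.165 and the stress-induced chromatin protein NUPR1 at 0.111 CPM per kilobase. The enzymes of serine and one-carbon metabolism ran from PHGDH at 2.605 to SHMT2 at 46.0 CPM per kilobase. The stress genes TRIB3 (8.87) and DDIT4 (6.57) lay above PHGDH. The stress effector CHAC1, which degrades glutathione, was at 1.299 ± 0.206 and ATF3, a stress-induced bZIP factor, at 0.451 ± 0.048 CPM per kilobase.

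The core of the C/EBP-ATF response element was searched in the promoters of these genes as TGATGNAA, where N is any base, and as TTNCATCA on the other strand. RefSeq promoter windows (GRCh38.p14), which run from 250 bases before to 50 after each annotated start, were at hand for 28 of the 33 genes, and 9 of those 28 (32.1%) held the core in at least 1 window, against 1217 of 27305 genes (4.46%) in the whole table. By windows the shares were 9 of 47 (19.1%) for these genes and 1270 of 35116 (3.62%) for all. The list was drawn in part from known ATF4 targets, so a higher share is partly built into the choice and is no support for it. The segments below are shown for genes that turn up in the results, each written along its gene's strand with up to 20 bases on either side and the core in capitals.
ASNS: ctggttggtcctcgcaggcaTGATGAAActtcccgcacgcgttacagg
CEBPG: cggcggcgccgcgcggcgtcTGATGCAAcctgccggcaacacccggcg
SLC7A1: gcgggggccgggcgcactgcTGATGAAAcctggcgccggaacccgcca
SLC1A5: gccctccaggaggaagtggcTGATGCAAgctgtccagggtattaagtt
SLC1A4: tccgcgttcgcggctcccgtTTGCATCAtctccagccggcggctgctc
SLC3A2: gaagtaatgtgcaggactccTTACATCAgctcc
CHAC1: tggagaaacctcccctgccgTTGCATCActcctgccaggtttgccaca

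The ASNS segment lies at chr7:97872449-97872496 on the minus strand, with the core starting at -68 when the annotated start is counted as 0. That of CEBPG, a C/EBP partner of ATF4, is at chr19:33374051-33374098 on the plus strand, with the core at -42. The SLC7A1 core starts at 7 (chr13:29595654-29595701, minus strand), and the SLC1A5 core at -97 of 1 of its annotated starts (chr19:46784884-46784931, minus strand). In SLC1A4, a serine and alanine exchanger (chr2:64989372-64989419, plus strand), SLC3A2, the heavy chain that carries SLC7A5 to the membrane (chr11:62881716-62881748, plus strand), and CHAC1 (chr15:40953242-40953289, plus strand), the core is on the other strand, so it reads TTNCATCA. The ASNS and SLC7A1 cores share 1 spelling, TGATGAAA, and those of CEBPG and SLC1A5 another, TGATGCAA. ATF3 and JDP2, a bZIP repressor, held the core as well. A match is a description of the letters and was not tested for binding.

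Wortmannin lowered 7 of the 31 tested genes and raised none of them. They were ASNS, the serine synthesis enzymes PHGDH and PSAT1, the mitochondrial serine hydroxymethyltransferase SHMT2, SLC7A5, ATF4 and TRIB3, a pseudokinase that feeds back on ATF4. The share, 7 of 31, stands beside 7.46% of all genes called lower and 6.26% called higher in this comparison (edgeR quasi-likelihood test, Benjamini-Hochberg adjusted p under 0.05). The median log2 fold change of the 31 genes was -0.16, and that of all genes 0.0.

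ASNS had 31.4, 34.1 and 33.1 CPM with wortmannin, against 54.9, 52.9 and 52.6 CPM with vehicle. All wortmannin libraries were below all vehicle libraries, and the change was the largest of the 7. Its log2 fold change was -0.70 ± 0.06, where ± is the standard error here and for other fold changes (adjusted p = 9.34e-13). ATF4 had 204 to 209 CPM in the wortmannin libraries, against 253 to 259 CPM in vehicle, without overlap and with little spread in either group. Its log2 fold change was -0.31 ± 0.04 (adjusted p = 3.19e-08). PHGDH, which takes the first step from glycolysis into serine, had 17.9, 17.8 and 18.3 CPM with wortmannin, against 23.3, 24.8 and 24.0 CPM with vehicle. The groups were apart, and the log2 fold change was -0.41 ± 0.07 (adjusted p = 1.1e-05).

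PSAT1, the next enzyme of serine synthesis, had 60.4, 57.8 and 57.5 CPM with wortmannin, against 79.3, 79.5 and 67.7 CPM with vehicle, a log2 fold change of -0.37 ± 0.06 (adjusted p = 4.43e-06). The lowest vehicle library was still above the wortmannin libraries. SLC7A5 had 216, 231 and 233 CPM with wortmannin, against 305, 292 and 279 CPM with vehicle, and its log2 fold change was -0.36 ± 0.08 (adjusted p = 0.00166). SHMT2 changed by -0.25 ± 0.04 (adjusted p = 6.94e-06). TRIB3 changed by -0.25 ± 0.08 (adjusted p = 0.0237), and its call was lost when any 1 of the wortmannin libraries or replicate 2 of vehicle was left out, whereas the other 6 kept theirs in each of the 6 fits that left out 1 library.

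Among the 24 genes not called, the point estimates ran from -0.66 in SLC6A9 to 0.11 in CTH, which makes cysteine from cystathionine. The third enzyme of serine synthesis, PSPH, was at -0.09 ± 0.07 and MTHFD2, the mitochondrial folate dehydrogenase, at -0.14 ± 0.07. Of 5 enzymes of serine and one-carbon metabolism, 3 were called lower, and of 8 bZIP factors and cofactors, 7 transporters, 5 stress effectors and 6 other amino acid enzymes, 1 each. In all, 26 of 31 estimates were negative. Without the filter on low counts, 11 genes were called lower.

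LY294002 lowered 19 of the 31 genes and raised none, beside 20.5% of all genes called lower and 18.7% called higher. All 5 enzymes of serine and one-carbon metabolism fell, as did 6 of 7 transporters. The median log2 fold change of the 31 was -0.29, and that of all genes 0.007. The 7 genes called lower with wortmannin were all among the 19, but both comparisons use the same vehicle libraries.

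PSAT1 had 49.0, 43.5 and 46.8 CPM with LY294002, against 79.3, 79.5 and 67.7 CPM with vehicle. All LY294002 libraries were below all vehicle libraries, and the log2 fold change was -0.70 ± 0.06 (adjusted p = 4.6e-14). SLC7A5 had 197, 188 and 134 CPM with LY294002, against 305, 292 and 279 CPM with vehicle, a log2 fold change of -0.76 ± 0.08 (adjusted p = 4.28e-10). Replicate 3 of LY294002 was the lowest of all 60 libraries for this carrier, and the estimate ran from -0.86 to -0.60 when 1 library was left out. SLC7A1 showed the same order, with 570, 557 and 398 CPM with LY294002 against 663, 687 and 656 CPM with vehicle (log2 fold change -0.39 ± 0.10, adjusted p = 0.000999).

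ATF4 had 187, 191 and 192 CPM with LY294002, against 253, 257 and 259 CPM with vehicle, and changed by -0.43 ± 0.04 (adjusted p = 5.04e-13). The libraries of each group were close together, as they were with wortmannin. ATF5, a bZIP factor regulated in translation like ATF4, had 48.0, 51.5 and 55.6 CPM with LY294002, against 68.4, 76.8 and 75.6 CPM with vehicle (-0.51 ± 0.08, adjusted p = 9.33e-07). ATF5 shares 626 exon bases with NUP62 on the opposite strand, and the strand setting of the authors' counting is not given in the sources used here. ASNS had 34.9, 38.2 and 39.9 CPM with LY294002, against 54.9, 52.9 and 52.6 CPM with vehicle (-0.51 ± 0.06, adjusted p = 5.97e-10). TRIB3 changed by -0.47 ± 0.08 (adjusted p = 2.9e-06) and PHGDH by -0.40 ± 0.07 (adjusted p = 2.8e-06).

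**Figure D1:**
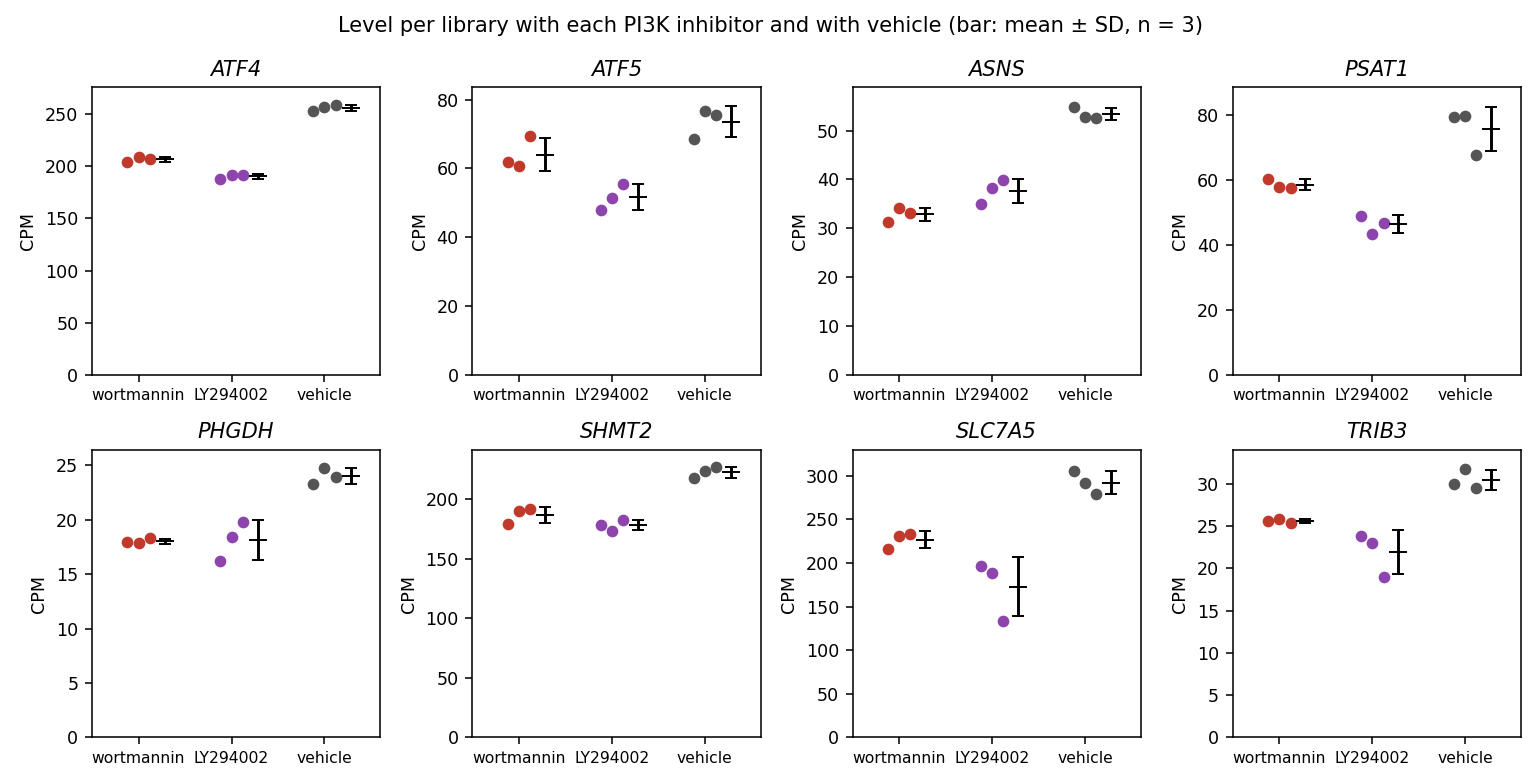
Level in CPM (vertical axis, from 0) of 8 genes in each library treated with wortmannin, with LY294002 or with vehicle (horizontal axis); points are libraries and the bar beside them is the mean ± SD, n = 3. ATF4 lies between 204 and 209 CPM with wortmannin and 187 and 192 CPM with LY294002, below 253 to 259 CPM with vehicle, and ASNS is lowest with wortmannin while the other 7 genes have their lowest library with LY294002.

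The remaining genes that fell with LY294002, named after their values were seen, moved less or were near the detection limit. SHMT2 changed by -0.32 ± 0.04, SLC1A4 by -0.34 ± 0.10, SLC3A2 by -0.30 ± 0.10, MTHFD2 by -0.29 ± 0.07, PSPH by -0.28 ± 0.07 and the alanine aminotransferase GPT2 by -0.22 ± 0.06. SLC1A5 (-0.17), CEBPG (-0.14) and the proline enzyme PYCR1 (-0.14) fell by small amounts, and each lost its call in at least 3 of the 6 fits that left out 1 library. SLC6A9 (0.544, 0.447 and 0.375 CPM with LY294002, against 0.768, 0.946 and 0.840 CPM with vehicle) and NUPR1 (0.233, 0.186 and 0.300 CPM, against 0.598, 0.370 and 0.928 CPM) were below 1 CPM in both groups. SLC6A9 also shares exon bases with CCDC24 on the opposite strand and lost its call in 3 of the 6 fits, and NUPR1 lost its call without vehicle replicate 3.

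Of the 12 genes not called with LY294002, 6 had positive estimates. Named after their values were seen, they were CEBPB (0.24 ± 0.16), the mitochondrial PEP carboxykinase PCK2 (0.14 ± 0.07), ATF3 (0.13 ± 0.24), ALDH18A1, which starts proline synthesis (0.07 ± 0.03), the glutamine transporter SLC38A2 (0.05 ± 0.06) and DDIT3 (0.01 ± 0.20). DDIT3 encodes CHOP, the bZIP factor of prolonged stress, and shares exon bases with MARS1 and MBD6 on the opposite strand, both with more counts. The stress effectors CHAC1 (-0.68 ± 0.36), DDIT4, an inhibitor of mTORC1 (-0.43 ± 0.19), and SESN2, a leucine sensor (-0.25 ± 0.15), were lower in every LY294002 library than in every vehicle library but were not called.

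Compared directly, wortmannin libraries were higher than LY294002 libraries in 6 genes and lower in 1, beside 12.7% of all genes called higher and 9.49% called lower. PSAT1, at 57.5 to 60.4 CPM with wortmannin against 43.5 to 49.0 CPM with LY294002, had a log2 fold change of 0.34 ± 0.06 (adjusted p = 1.47e-05). SLC7A5 differed by 0.39 ± 0.08 (adjusted p = 0.000433), ATF5 by 0.31 ± 0.08 (adjusted p = 0.0034), TRIB3 by 0.22 ± 0.08 (adjusted p = 0.0338), PSPH by 0.19 ± 0.07 (adjusted p = 0.0465) and ATF4 by 0.12 ± 0.04 (adjusted p = 0.017). ASNS went the other way, at 31.4 to 34.1 CPM with wortmannin against 34.9 to 39.9 CPM with LY294002 (-0.20 ± 0.06, adjusted p = 0.0111), but its call was lost without wortmannin replicate 1, without LY294002 replicate 3 and in a fit of these 6 libraries alone. The libraries of the inhibitors did not overlap for these genes, apart from PSPH. The calls of TRIB3 and PSPH held in 2 each of the 6 fits that left out 1 library, with estimates down to 0.13 and 0.10. A fit of the 6 libraries alone called 2 genes higher, PSAT1 and ATF5, and leaving out replicate 2 of wortmannin left 3.

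LY294002 had the lowest mean of all 21 groups for 20 of the 31 genes (64.5%), against 25.0% of all genes tested. Wortmannin had the lowest mean for 3 of them (9.68%), against 8.74% of all genes. The plot of log2 fold changes by gene and treatment sets these columns beside the extracts.

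**Figure D2:**
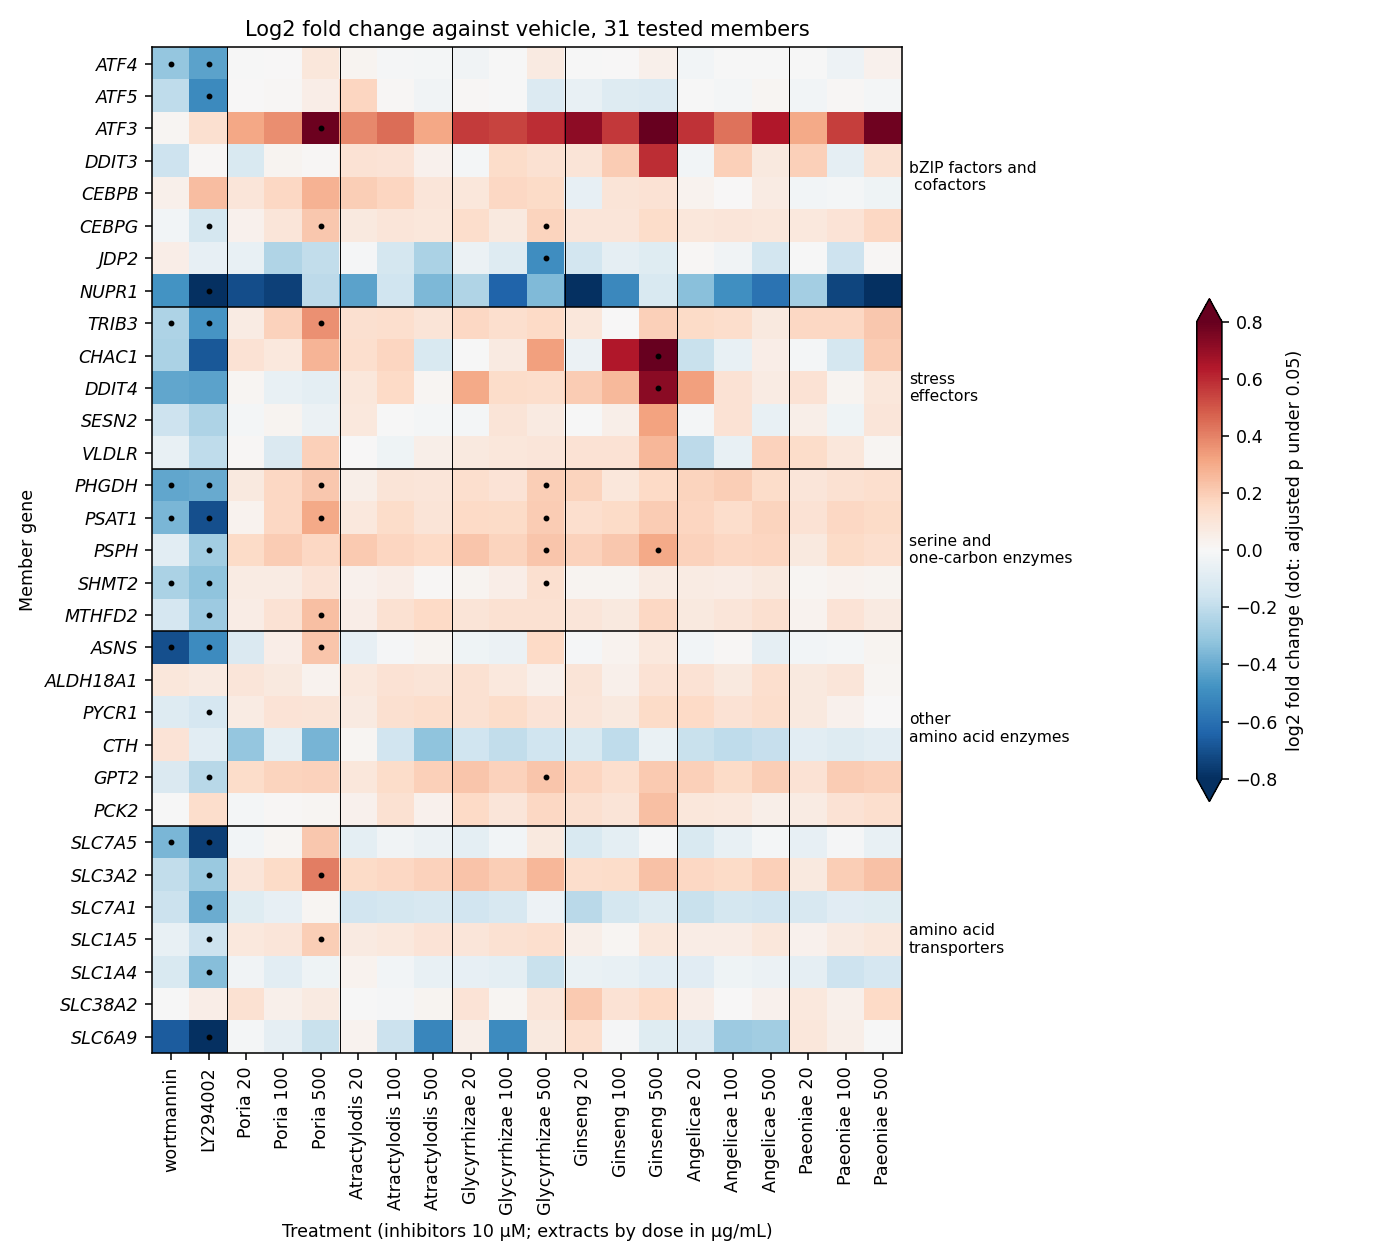
Log2 fold change against vehicle (colour, from -0.8 to 0.8, larger values at the end colours) of the 31 tested genes (rows, by role) in 20 treatments (columns); a dot marks an adjusted p under 0.05. The LY294002 column holds 19 dots and the wortmannin column 7, all of genes that were lower than vehicle, and the dots in the extract columns stand in Poria, Glycyrrhizae and Ginseng at 500 µg/mL.

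Genes outside the list that work with it were grouped by pathway and compared with the same vehicle libraries. Their counts stand beside the shares of all genes given above, 6.26% higher and 7.46% lower with wortmannin and 18.7% higher and 20.5% lower with LY294002, and shares such as 4 of 18 transporters higher with LY294002 are near these. Of 12 aminoacyl-tRNA synthetases, which load transfer RNAs and are known ATF4 targets, 9 fell with wortmannin and 11 with LY294002, and none rose. Their medians were -0.18 and -0.33. YARS1, the tyrosyl enzyme, changed by -0.47 ± 0.03 with wortmannin (adjusted p = 4.39e-15) and by -0.56 ± 0.03 with LY294002 (adjusted p = 1.08e-18), and TARS1, the threonyl enzyme, by -0.33 ± 0.04 and -0.50 ± 0.04.

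Of 16 genes of the integrated stress response machinery, 4 fell and 2 rose with wortmannin, and 8 fell and 1 rose with LY294002. PPP1R15B, which lets the eIF2 phosphatase act in unstressed cells, changed by -0.24 ± 0.04 with wortmannin and -0.31 ± 0.04 with LY294002, and IMPACT, an inhibitor of the amino acid sensor kinase GCN2, rose by 0.35 ± 0.09 and 0.54 ± 0.08. EIF2AK2, the eIF2 kinase activated by double-stranded RNA, rose with wortmannin by 0.33 ± 0.06 and fell with LY294002 by 0.17 on the log2 scale.

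Of 18 tested amino acid transporters outside the list, 4 fell and 3 rose with wortmannin, and 9 fell and 4 rose with LY294002. The glutamine transporter SLC38A5 had 23.4 ± 1.64 CPM with LY294002 and 52.4 ± 1.10 CPM with vehicle (SD, n = 3 each). Its log2 fold change was -1.17 ± 0.06 (adjusted p = 5.84e-21). SLC38A1 changed by -0.20 ± 0.05 with wortmannin and -0.43 ± 0.05 with LY294002, and SLC7A11, the cystine carrier, by -0.40 ± 0.09 and -0.60 ± 0.09. SLC1A1, a glutamate transporter, rose by 0.20 ± 0.04 and 0.23 ± 0.04.

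Of 13 tested serine, glycine and folate genes outside the list, 3 fell and 2 rose with wortmannin, and 6 fell and 3 rose with LY294002. MTHFD1L, the mitochondrial formate synthase, changed by -0.66 ± 0.06 and MTHFD1, its cytosolic relative, by -0.46 ± 0.04 with LY294002. TYMS, the thymidylate synthase of replicating cells, also changed, by -0.57 ± 0.06.

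The proline, glutamate and aspartate genes outside the list moved in both directions, with 3 of 14 higher and 1 lower with wortmannin, and 5 higher and 2 lower with LY294002. GLUL, the glutamine synthetase, rose by 0.30 ± 0.03 and 0.54 ± 0.03, ASS1, which joins citrulline and aspartate, by 0.74 ± 0.06 and 0.51 ± 0.06, and the mitochondrial aspartate aminotransferase GOT2 changed by -0.25 ± 0.03 and -0.43 ± 0.03. Among 12 tested genes of amino acid sensing by mTORC1, 1 rose with wortmannin and 6 rose and 1 fell with LY294002, including the Rag GTPase RRAGA (0.33 ± 0.07) and SESN1 (0.30 ± 0.07). Of 17 tested genes described elsewhere as ATF4 or CHOP targets, 3 fell and 1 rose with wortmannin, and 7 fell and 3 rose with LY294002. Among them XPOT, the transfer RNA exporter, changed by -0.30 ± 0.04 and -0.55 ± 0.04, EIF4EBP1, a translation repressor, by -0.70 ± 0.09 with LY294002, and NDRG1 rose by 0.32 ± 0.08 and 0.78 ± 0.08. SLC7A11 and MTHFD1L stand in 2 of these lists each.

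Poria at 500 µg/mL raised 9 of the 31 genes against vehicle and lowered none, beside 4.6% of all genes called higher and 2.89% called lower. The 9 were PSAT1, PHGDH and MTHFD2 of serine and one-carbon metabolism, ASNS, the transporters SLC3A2 and SLC1A5, TRIB3, CEBPG and ATF3. ATF4 itself had 269 to 277 CPM in the Poria libraries, against 253 to 259 CPM with vehicle, and was not called (0.09 ± 0.04, adjusted p = 0.122).

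SLC3A2 had 182, 132 and 160 CPM with Poria at 500 µg/mL, against 132, 121 and 103 CPM with vehicle. Replicate 2 of Poria was within the vehicle range, and the log2 fold change was 0.41 ± 0.09 (adjusted p = 0.00388). The call was lost without vehicle replicate 3, without Poria replicate 1 and in a fit of these 6 libraries alone. A fit with a replicate block nested in code set gave 0.26 and no call. In that fit vehicle and extracts share no block, so an extract's value against vehicle depends on the replicate number taken as reference. No conclusion is drawn from such values. TRIB3 had 41.9, 38.5 and 37.3 CPM with Poria, against 30.1, 31.8 and 29.6 CPM with vehicle, a log2 fold change of 0.37 ± 0.08 (adjusted p = 0.00107). The Poria libraries were all above the vehicle libraries. PSAT1 had 94.2, 89.5 and 95.8 CPM with Poria, against 79.3, 79.5 and 67.7 CPM with vehicle (0.30 ± 0.06, adjusted p = 0.000248).

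These 2, TRIB3 and PSAT1, were called in each fit that left out 1 library. MTHFD2 changed by 0.24 ± 0.07 (adjusted p = 0.0154) and ASNS, at 59.8, 60.7 and 66.7 CPM with Poria against 54.9, 52.9 and 52.6 CPM with vehicle, by 0.22 ± 0.06 (adjusted p = 0.00829). The others, named after their values were seen, were CEBPG (0.22 ± 0.05), PHGDH (0.22 ± 0.06), SLC1A5 (0.19 ± 0.06) and ATF3 (0.78 ± 0.22), the last at 2.89 to 3.35 CPM with Poria against 1.60 to 1.96 CPM with vehicle. Without vehicle replicate 3, which had the highest mitochondrial share of the vehicle libraries at 11.4% against 8.61% and 9.90%, 2 genes were called. Without replicate 1 of Poria 4 were called, and a fit of these 6 libraries alone called 2, TRIB3 and ATF3. The block nested in code set, which cannot settle extract against vehicle, gave no call for MTHFD2 (0.19), CEBPG (0.15) and SLC1A5 (0.11). The part of the mitochondrial share and of the code set in these counts was not tested.

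Within its own code set, Poria at 500 against 20 µg/mL raised 5 genes, ASNS, PSAT1, TRIB3, CEBPG and SLC3A2, and lowered none, beside 3.21% of all genes called higher and 2.3% called lower. ASNS averaged 53.4 CPM with vehicle and 49.4, 55.5 and 62.4 CPM at 20, 100 and 500 µg/mL of Poria. At 500 µg/mL it was above every library at 20 µg/mL, which had 47.1, 51.2 and 49.8 CPM, with a log2 fold change of 0.34 ± 0.06 (adjusted p = 6.62e-05). PSAT1 averaged 75.5 CPM with vehicle and 77.2, 84.8 and 93.2 CPM at the 3 doses, and its log2 fold change between 500 and 20 µg/mL was 0.27 ± 0.06 (adjusted p = 0.00115). These means were in the order of the doses for both genes.

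At 500 µg/mL TRIB3 had 41.9, 38.5 and 37.3 CPM, against 33.7, 32.2 and 30.0 CPM for the lower dose (0.30 ± 0.07, adjusted p = 0.00976). CEBPG changed by 0.18 ± 0.05 (adjusted p = 0.02) and SLC3A2 by 0.31 ± 0.09 (adjusted p = 0.0392), the last with overlap between the doses. ATF4 was not called (0.10 ± 0.04, adjusted p = 0.135). ASNS and PSAT1 were called in all 6 fits that left out 1 library. Without replicate 1 at 500 µg/mL, or without replicate 3 at 20 µg/mL, these 2 were the genes called, and of the 5 a fit of the 6 libraries alone kept the same 2. Without replicate 2 at 20 µg/mL, 3 were called.

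**Figure D3:**
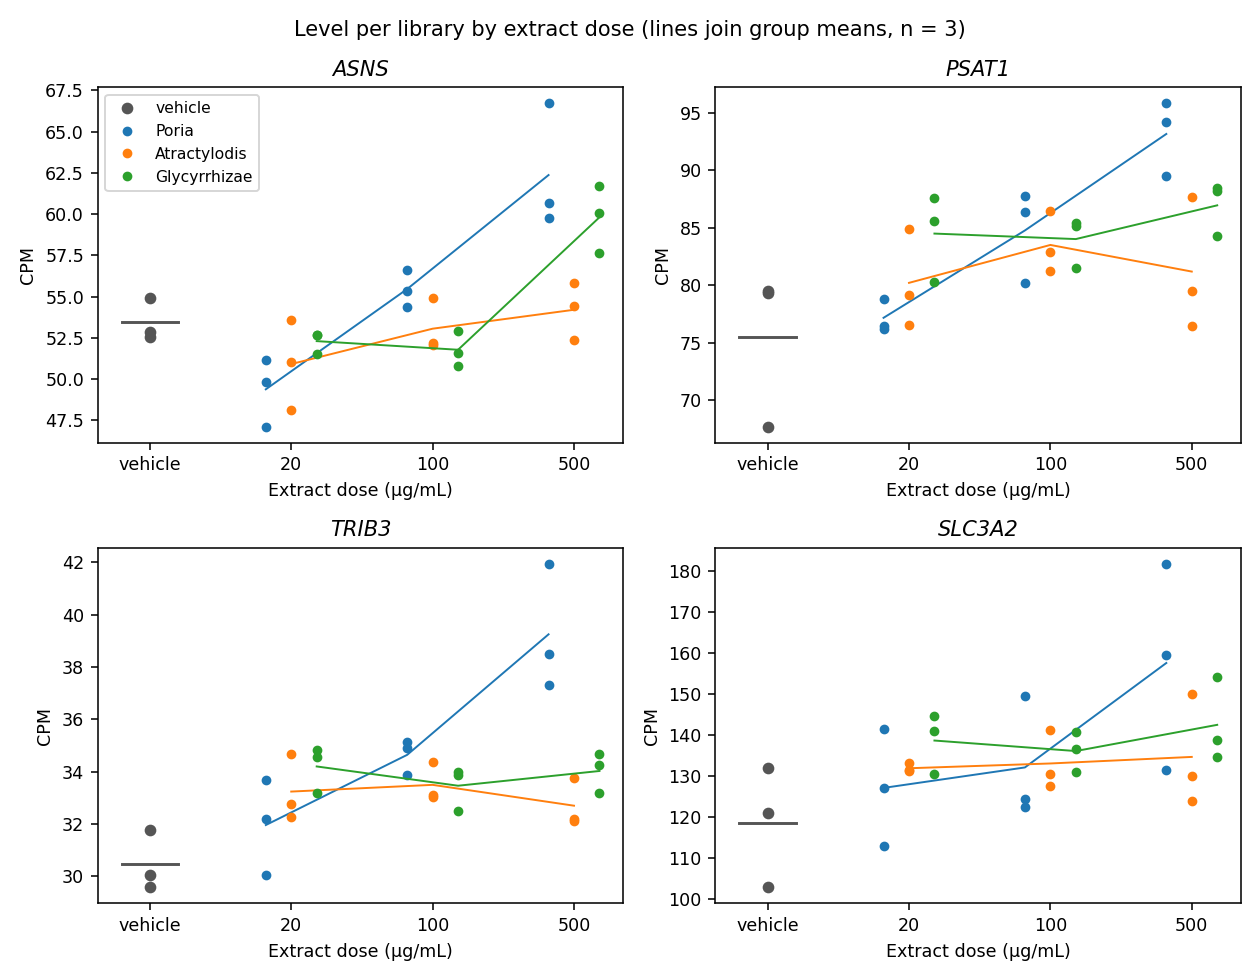
Level in CPM (vertical axes, which do not start at 0) of ASNS, PSAT1, TRIB3 and SLC3A2 in each vehicle library and at 20, 100 and 500 µg/mL of Poria, Atractylodis and Glycyrrhizae (horizontal axis); points are libraries, lines join group means and the short line is the vehicle mean, n = 3. The Poria means of ASNS are 49.4, 55.5 and 62.4 CPM, while those of Atractylodis, from the same code set, are 50.9, 53.1 and 54.2 CPM.

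At 500 µg/mL, Poria libraries were higher than Atractylodis libraries of the same code set in 3 genes and lower in none, beside 1.1% of all genes called higher and 0.751% called lower. ASNS had 59.8, 60.7 and 66.7 CPM with Poria, against 54.4, 55.8 and 52.4 CPM with Atractylodis (0.20 ± 0.06, adjusted p = 0.0393). TRIB3 differed by 0.27 ± 0.07 (adjusted p = 0.0468) and PSAT1 by 0.20 ± 0.06 (adjusted p = 0.0436), in each case without overlap. These calls were close to the threshold. Leaving out any 1 of the 6 libraries kept 0 or 1 of the 3, and a fit of these libraries alone called none of the 3. The dose effect, 500 less 20 µg/mL, differed between Poria and Atractylodis by 0.25 ± 0.08 for ASNS (adjusted p = 0.239) and 0.26 ± 0.08 for PSAT1 (adjusted p = 0.208). The difference of dose effects was not called for any of the 31 genes, beside 0.394% of all genes.

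Among the related lists, Poria at 500 µg/mL against vehicle raised 5 of 16 genes of the stress response machinery, 4 of 12 aminoacyl-tRNA synthetases, 5 of 13 serine, glycine and folate genes and 4 of 17 other described targets, and lowered none of these, beside 4.6% of all genes called higher and 2.89% called lower. SLC7A11 had 257 ± 14.7 CPM with Poria and 147 ± 7.78 CPM with vehicle (SD, n = 3 each). Its log2 fold change was 0.81 ± 0.09 (adjusted p = 4.52e-09). It was the 1 transporter of 18 that rose, and it is known as a target of the antioxidant factor NRF2 as well as of ATF4. Within the code set, SLC7A11 was called higher with Poria at 500 against 20 µg/mL (0.795) and against Atractylodis at 500 µg/mL (0.769). With Glycyrrhizae at 500 µg/mL it was also called higher, against vehicle (0.303) and against 20 µg/mL (0.36). MARS1, the methionyl-tRNA synthetase, changed by 0.21 ± 0.04 (adjusted p = 0.000486), EIF2S1, the subunit of eIF2 that is phosphorylated, by 0.20 ± 0.05 (adjusted p = 0.00693) and MTHFD1 by 0.21 ± 0.04 (adjusted p = 0.00056). MARS1 was not particular to Poria. It was also called higher than the same vehicle with Atractylodis (0.19), Glycyrrhizae (0.15) and Ginseng (0.18) at 500 µg/mL. The same held for Glycyrrhizae (0.20) and Angelicae (0.18) at 20 µg/mL. Between 500 and 20 µg/mL of Poria, MARS1 was not called. EIF2S1 was also called higher with Glycyrrhizae at 500 µg/mL (0.16). GLUL was lower with Poria, by -0.17 ± 0.03 (adjusted p = 0.000495), and SESN1 by -0.28 ± 0.07 (adjusted p = 0.00474).

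Glycyrrhizae at 500 µg/mL raised 6 of the 31 genes against vehicle and lowered 1, beside 3.65% of all genes called higher and 3.26% called lower. The 6 included 4 of the 5 enzymes of serine and one-carbon metabolism. PSAT1 had 88.4, 88.2 and 84.3 CPM with Glycyrrhizae, against 79.3, 79.5 and 67.7 CPM with vehicle. The libraries did not overlap, and the log2 fold change was 0.20 ± 0.06 (adjusted p = 0.0174). GPT2 had 85.4, 92.2 and 86.6 CPM with Glycyrrhizae, against 78.9, 74.1 and 73.6 CPM with vehicle (0.22 ± 0.06, adjusted p = 0.0204). PSPH changed by 0.22 ± 0.07 (adjusted p = 0.0477), PHGDH by 0.20 ± 0.06 (adjusted p = 0.0485) and CEBPG by 0.18 ± 0.05 (adjusted p = 0.0254).

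The remaining calls with Glycyrrhizae, named after their values were seen, were SHMT2 (0.13 ± 0.04, adjusted p = 0.0407) and JDP2 (-0.49 ± 0.15, adjusted p = 0.0285). JDP2 was at 2.58 to 2.94 CPM with Glycyrrhizae against 3.62 to 4.33 CPM with vehicle. Its call held in 1 of the 6 fits that left out 1 library, and that of SHMT2 in none. ATF4 (0.07 ± 0.04, adjusted p = 0.27) and ASNS (0.16 ± 0.06, adjusted p = 0.0666) were not called. Leaving out 1 library kept 1 to 3 of the 6 genes called higher. PSPH alone was kept without vehicle replicate 3, 2 were kept without vehicle replicate 2 and without replicate 1 or 2 of Glycyrrhizae, and 3 without vehicle replicate 1 and without Glycyrrhizae replicate 3. A fit of these 6 libraries alone called GPT2. With the replicate block nested in code set, PSAT1 (0.15), CEBPG (0.12) and JDP2 (-0.40) were not called, but that fit cannot settle extract against vehicle.

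Between 500 and 20 µg/mL of Glycyrrhizae, within the code set, 1 gene was called, ASNS, beside 1.83% of all genes called higher and 2.02% called lower. At 500 µg/mL ASNS had 61.7, 57.7 and 60.1 CPM, against 52.7, 52.7 and 51.5 CPM for the lower dose (0.19 ± 0.06, adjusted p = 0.0354). The doses did not overlap, but the call was lost in 5 of the 6 fits that left out 1 library, without the filter on low counts and in a fit of these libraries alone. At 100 µg/mL the mean of ASNS was 51.8 CPM. In PSAT1, which was called against vehicle, the means were 75.5 CPM with vehicle and 84.5, 84.0 and 87.0 CPM at the 3 doses, so the lowest dose was already above vehicle.

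Ginseng at 500 µg/mL raised 3 genes against vehicle, PSPH, DDIT4 and CHAC1, and lowered none, beside 0.173% of all genes called higher and 0.179% called lower. PSPH had 42.8, 39.5 and 40.7 CPM with Ginseng, against 32.2, 32.2 and 35.3 CPM with vehicle, without overlap. The log2 fold change was 0.30 ± 0.07 (adjusted p = 0.035), and it stayed between 0.27 and 0.35 when 1 library was left out, but none of those fits called it. DDIT4 had 36.2, 13.4 and 17.1 CPM with Ginseng, against 14.2, 13.7 and 12.6 CPM with vehicle, a log2 fold change of 0.72 ± 0.18 (adjusted p = 0.0497). CHAC1, which was below 5 CPM on average and is named after its values were seen, had 12.8, 3.08 and 2.92 CPM with Ginseng, against 3.16, 2.38 and 2.48 CPM with vehicle (1.23 ± 0.30, adjusted p = 0.0497). In both genes replicate 1 was far above the others, which were in or near the vehicle range.

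Without replicate 1 of Ginseng at 500 µg/mL, the log2 fold change was 0.16 for CHAC1 and 0.18 for DDIT4, and none of the 3 genes was called. With the replicate block nested in code set, CHAC1 (0.85) and DDIT4 (0.58) were not called, but that fit cannot settle extract against vehicle. ALDH18A1 was the 1 gene called without replicate 1. Leaving out replicate 2 of Ginseng left 2 calls and leaving out replicate 3 left 1, while no gene was called without vehicle replicate 2 or 3 or in a fit of these 6 libraries alone. ATF4 (0.04 ± 0.04, adjusted p = 0.663) and ASNS (0.08 ± 0.06, adjusted p = 0.487) were not called with all libraries.

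Replicate 1 of Ginseng at 500 µg/mL, singled out after its values were seen, was the highest of all 60 libraries for 13 of the 31 genes (41.9%), against 1.69% of all genes tested. The 13 were CHAC1, DDIT3, DDIT4, SESN2, TRIB3, ATF3, ATF4, VLDLR, PSPH, PCK2, SLC7A1, SLC1A4 and SLC38A2. DDIT3 had 13.3, 5.68 and 6.39 CPM in replicates 1, 2 and 3, and the highest value in any other library of the study was 7.46 CPM. SESN2 had 22.2, 10.4 and 10.5 CPM, against a median of 11.4 CPM over the 60 libraries. ATF4 was at 286 CPM in this library, a smaller step above 253 and 251 CPM in the others of the group.

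Replicate 1 of Ginseng at 100 µg/mL was the next highest of the 60 libraries for CHAC1 (6.45 CPM), DDIT4 (20.95 CPM), SESN2 (14.1 CPM) and SLC7A1 (699 CPM). Replicate 1 of Ginseng at 20 µg/mL had 2.06 CPM of CHAC1 and 10.8 CPM of SESN2, both below replicates 2 and 3 of that dose. SLC7A1 was high in every replicate 1 library of this code set, at 657 to 723 CPM over Glycyrrhizae and Ginseng, against 528 to 651 CPM in replicates 2 and 3. The library at 500 µg/mL held 27879839 counts, with 8.94% from mitochondrially encoded genes, inside the range of the others. Replicate 1 of Poria at 500 µg/mL was the highest library for 6 of the 31 genes (19.4%), against 4.33% of all genes. These were CEBPB, CEBPG, MTHFD2, SLC7A5, SLC3A2 and SLC1A5, and the stress effectors CHAC1 and DDIT4 were not among them. CEBPB was high in every replicate 1 library of Poria and Atractylodis, at 72.9 to 91.2 CPM, against 50.9 to 67.4 CPM in replicates 2 and 3.

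**Figure D4:**
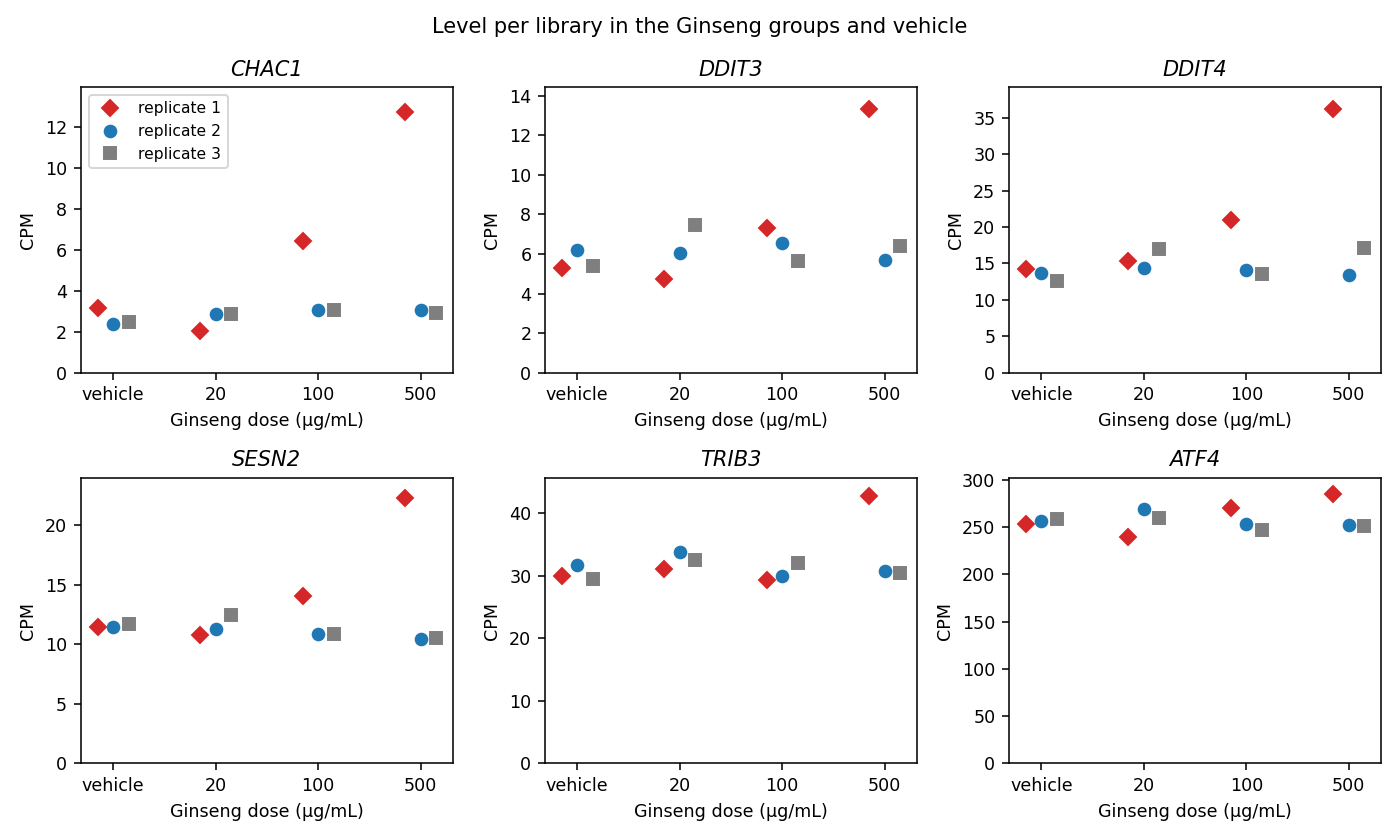
Level in CPM (vertical axes, from 0) of 6 genes in each library of vehicle and of Ginseng at 20, 100 and 500 µg/mL (horizontal axis), with replicates 1, 2 and 3 by symbol. CHAC1 reaches 12.8 CPM in replicate 1 at 500 µg/mL and 6.45 CPM in replicate 1 at 100 µg/mL, against 3.08 and 2.92 CPM in the other replicates at 500 µg/mL; ATF4 differs less, at 286 CPM against 253 and 251 CPM.

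Between 500 and 20 µg/mL of Ginseng 0 of the 31 genes were called, beside 0.0% of all genes, and CHAC1 had the largest estimate (1.28 ± 0.29, adjusted p = 0.279). It was called when replicate 2 or replicate 3 at 500 µg/mL was left out, and not without replicate 1. Glycyrrhizae against Ginseng at 500 µg/mL, from 1 code set, had 0 called, beside 2.48% of all genes, and the estimates for CHAC1 (-0.91 ± 0.29, adjusted p = 0.0847) and DDIT4 (-0.58 ± 0.17, adjusted p = 0.0576) include the same library. Without it, ASNS was the 1 gene called. Leaving out replicate 2 of Ginseng instead gave 3 calls, CHAC1, DDIT3 and DDIT4, and leaving out replicate 3 gave 2, CHAC1 and DDIT4. The dose effects of Glycyrrhizae and Ginseng differed in 0 of the 31 genes, beside 0.0477% of all genes.

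The other extract comparisons gave no call among the 31 genes. In either direction, the share of all genes called was 0.0417% and 0.0% for Poria at 100 and 20 µg/mL, 0.25%, 0.364% and 0.137% for Atractylodis at 500, 100 and 20 µg/mL, 0.34% and 0.37% for Glycyrrhizae at 100 and 20 µg/mL, and 0.0% for Ginseng at both lower doses. It was 0.161%, 0.00596% and 0.173% for Angelicae and 0.161%, 0.0477% and 0.0% for Paeoniae at 500, 100 and 20 µg/mL. Between 500 and 20 µg/mL it was 0.0% for Atractylodis, 0.0179% for Angelicae and 0.0358% for Paeoniae, and Angelicae against Paeoniae at 500 µg/mL gave 0.0179%. The dose effects of Angelicae and Paeoniae differed in 0.0% of all genes. So few genes of any kind were called here that a count of 0 among 31 is near the background.

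In the 21 comparisons of 2 groups without a call, 0 to 11 of the 31 genes had an unadjusted p under 0.05 in the edgeR quasi-likelihood test, and DESeq2 called 0 to 2. In the 3 differences of dose effects these counts were 1 to 7, and 0 by DESeq2. The median log2 fold change of the 31 genes lay between -0.042 and 0.095 in the comparisons of 2 groups. Without vehicle replicate 1, ALDH18A1 was called for Atractylodis at 100 µg/mL and for Angelicae at 500 and 20 µg/mL, and ALDH18A1 and GPT2 for Glycyrrhizae at 20 µg/mL. GPT2 was also called for Glycyrrhizae at 20 µg/mL without its own replicate 1.

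ATF4 was steady over the extracts, with group means between 249 CPM (Paeoniae at 100 µg/mL) and 273 CPM (Poria at 500 µg/mL), against 256 CPM with vehicle. Its log2 fold changes ran from -0.04 ± 0.04 to 0.09 ± 0.04, and none was called. For Angelicae at 500 µg/mL the 95% interval was -0.08 to 0.07, and for Atractylodis at 500 µg/mL -0.09 to 0.06. ASNS ranged from 49.4 CPM with Poria at 20 µg/mL to 62.4 CPM with Poria at 500 µg/mL, and its interval for Angelicae at 500 µg/mL was -0.19 to 0.04. These intervals cover 1 gene at a time.

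Among the extracts, the ratio of the highest to the lowest group mean was 2.65 for CHAC1, 2.06 for NUPR1, 1.74 for DDIT4 and 1.63 for DDIT3. It was 1.09 for SHMT2, 1.10 for ATF4 and GPT2 and 1.29 for TRIB3. CHAC1, NUPR1, DDIT4 and DDIT3 had their highest extract mean in Ginseng at 500 µg/mL, the group with the library that stood apart. In replicate 1 of that group CHAC1, DDIT4 and DDIT3 had 12.8, 36.2 and 13.3 CPM. Replicates 2 and 3 had 3.08 and 2.92, 13.4 and 17.1, and 5.68 and 6.39 CPM. NUPR1 was under 1 CPM in all of them, at 0.731, 0.324 and 0.657 CPM, and replicate 1 did not stand apart there. Poria at 500 µg/mL had the highest extract mean for ASNS, PSAT1, PHGDH, MTHFD2, TRIB3, ATF4, CEBPB, CEBPG, SLC7A5, SLC3A2, SLC7A1 and SLC1A5.

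The vehicle mean was below the means of all 18 extract groups for 13 of the 31 genes (41.9%), against 12.1% of all genes tested, and above all of them for 1 (3.23%), against 12.05% of all genes. The 13 included all 5 enzymes of serine and one-carbon metabolism, such as PSAT1, at 77.2 to 93.2 CPM in the extract means against 75.5 CPM with vehicle, and PSPH, at 35.2 to 41.0 CPM in the extract means against 33.3 CPM with vehicle. Every extract group differs from vehicle in its code set, so extract and code set cannot be told apart in this order, and it was not tested.

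**Figure D5:**
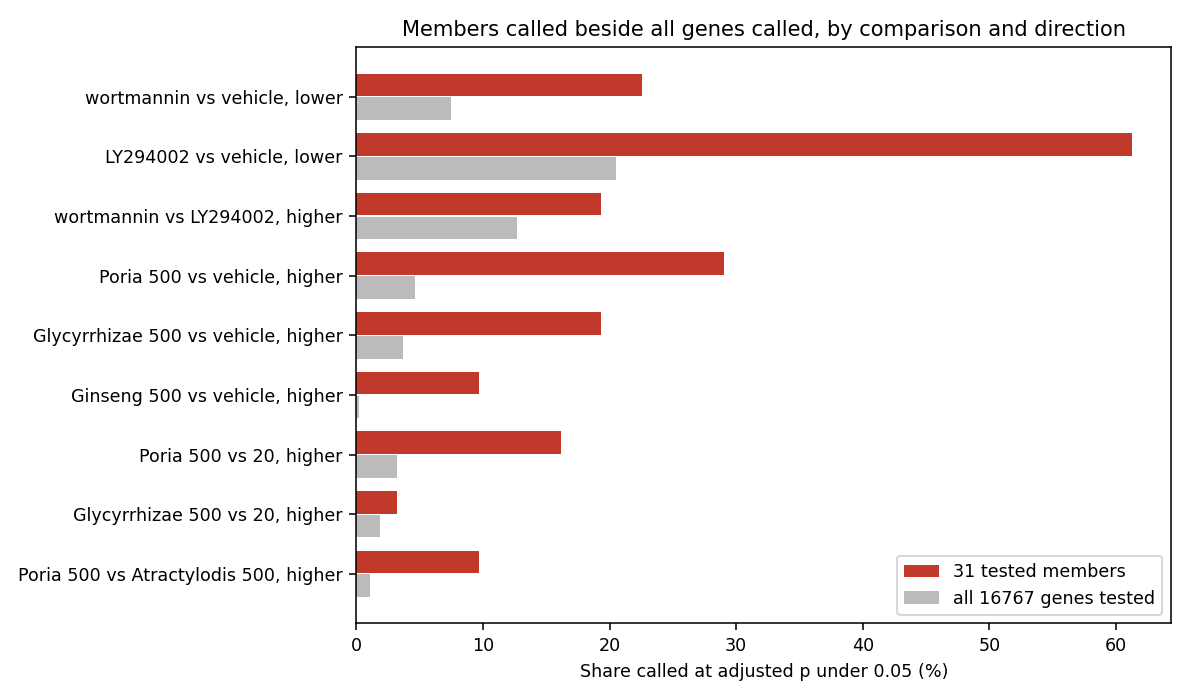
Share of the 31 tested genes (red) and of all 16767 genes tested (grey) called at an adjusted p under 0.05 (horizontal axis, in percent, from 0), for the comparisons with a call, in the direction that held most of them. LY294002 against vehicle has 61.3% of the 31 genes lower beside 20.5% of all genes, and Poria at 500 µg/mL against vehicle has 29.03% higher beside 4.6% of all genes.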

How the data were processed

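Messenger RNA of 60 HT29 libraries in 21 groups was analysed. Per the labels' protocols, directional libraries were read as 100 bp pairs. The submitters' processing notes name FastQC 0.11.9, Trim Galore 0.6.5, STAR 2.7.3a, RSEM 1.3.3 and GRCh38 (hg38), while the strand setting and the annotation release were not stated there. The deposited table holds the authors' expected counts per Ensembl gene, not normalised, of which 24.2% of values above 0 were not whole. Another 213 columns of the table were not used. Exon lengths and coordinates came from GENCODE 29, matched by Ensembl identifier, and promoters from RefSeq. Symbols came from a separate list of gene names, with the GENCODE 29 name where that list had none.

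Expected counts were rounded and filtered with filterByExpr (minimum count 10, minimum total 15) of edgeR 4.0.16 in R 4.3.3. After TMM normalisation, 1 quasi-likelihood model with a mean per group was fitted to all libraries (39 residual degrees of freedom, trended dispersion). In each of 33 comparisons, Benjamini-Hochberg adjustment of the p-values ran over 16767 genes. Standard errors come from the F statistic, and intervals are 95% t intervals. The depth limits precision for genes under about 5 CPM. The same fit was tried on simulated counts for wortmannin against vehicle only, with the same spread for all genes. The changes planted there were larger than many called here, so that trial does not cover the smaller calls. Alternatives were RLE scaling, DESeq2 1.42.0, no filter, the libraries of the compared groups alone, replicate blocks and leaving out each library.

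The genes and lists were chosen with earlier results of these data known. The text names, among called genes that averaged 5 CPM or more, those that changed most (up to 8 for an inhibitor and 5 for an extract), ATF4 and ASNS, and up to 4 genes of each related list by adjusted p. Others are marked. SLC7A11, MTHFD1L and some others stand in 2 lists.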

Additional observations from a re-analysis of the deposited data

How the results depend on the processing

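The calls rest on 3 libraries a group, low genes are the least precise, and extract against vehicle also compares code sets. The 61 called gene and comparison pairs gave 731 values, 1 for each pair and alternative setting, and many values come from the same refit. Direction was kept in all of them and the call was lost in 172. These values include the block nested in code set. RLE scaling moved no count by over 1.5 times. Without the filter on low counts, the counts were 11 lower for wortmannin and 9 higher for Ginseng at 500 µg/mL against vehicle, 0 for Glycyrrhizae 500 against 20 µg/mL, 5 for Angelicae 20, 4 for Glycyrrhizae 20, 3 for Ginseng 20, Angelicae 500, Ginseng 500 against 20 and Glycyrrhizae against Ginseng at 500, 2 for Atractylodis 500, Glycyrrhizae 100, Paeoniae 500 and Paeoniae 100, and 1 for Atractylodis 20 and Ginseng 100. Fits of the 2 groups alone gave 2 for wortmannin against LY294002, Poria 500 and Angelicae 20 against vehicle, 3 for Poria 500 against 20, 1 for Glycyrrhizae 500 and for Poria against Atractylodis, and 0 for Ginseng 500 and Glycyrrhizae 500 against 20, with fewer samples. DESeq2 called 5 for Ginseng 500, 2 for Glycyrrhizae 20 and 1 for Angelicae 500 and for Glycyrrhizae against Ginseng. The other causes were not tested.

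The labels do not say that replicate numbers mark shared days or cultures, and in no comparison did every same-numbered pair correlate over 0.1. Within code sets replicate 1 stood apart in single genes, such as CEBPB and SLC7A1. With a replicate block, 5 genes were called for Ginseng 500, 2 for Glycyrrhizae 20 and 1 for Angelicae 500, Angelicae 20, Paeoniae 500 and Glycyrrhizae against Ginseng. With the replicate block nested in code set, 5 were called for Ginseng 20, 4 for Glycyrrhizae 100 and 20, 2 for Ginseng 100, Angelicae 500 and Angelicae 20, and 1 for Atractylodis 500, Atractylodis 20 and Glycyrrhizae against Ginseng. Apart from Glycyrrhizae against Ginseng, these are comparisons with vehicle, which shares no block with the extracts. Their counts depend on the replicate number taken as reference, and no conclusion is drawn from them. The other counts were within 1.5 times. The nested block also ended 9 calls of Poria, Glycyrrhizae and Ginseng at 500 µg/mL against vehicle, given with those results, and the same limit holds for these.

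Leaving out 1 library gave 6 to 7 lower for wortmannin, 15 to 18 lower for LY294002, 3 to 6 higher for wortmannin against LY294002, 2 to 9 for Poria 500, 1 to 4 for Glycyrrhizae 500, 0 to 3 for Ginseng 500, 2 to 6 for Poria 500 against 20, 0 to 1 for Glycyrrhizae 500 against 20, 0 to 1 for Poria against Atractylodis, 0 to 3 for Glycyrrhizae against Ginseng, 0 to 2 for Glycyrrhizae 20, and 0 to 1 for Atractylodis 100, Angelicae 500, Angelicae 20 and Ginseng 500 against 20. For extract against extract, alternatives other than RLE and the replicate block were chosen after seeing the data. In a group of 2, the library left is assumed to vary like the other groups.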
